A study of Mus musculus with 12 samples.

Results

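Gusb encodes β-glucuronidase, an acid hydrolase of the lysosome that removes terminal glucuronic acid from glycosaminoglycans such as dermatan, heparan and chondroitin sulfate. It is made in nearly every cell type, and its loss causes the lysosomal storage disease mucopolysaccharidosis type VII, in which glycosaminoglycans build up in many tissues, the heart valves and vessels among them. Gusb is also widely used as a reference gene for mRNA measurements, which was its role on the arrays analysed here. Reference genes are chosen because their mRNA is thought to stay level across samples.

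Gusb was 1 of 60915 probes and 1 of 15 housekeeping probes that the array files pair with a RefSeq accession. It was chosen by its measured level: out of a pair of candidate housekeeping probes, the one taken was that whose excess over the other 9 arrays was larger on TG ISO 1, TG ISO 2 and TG vehicle 3, named below. The accession printed beside that probe is listed by RefSeq as Gusb, and that of the other candidate as B2m, the light chain of MHC class I. The excess was 1.58 for Gusb and 0.75 for B2m on the log2 scale. Because these levels chose the gene, they are given as a description, without a test.

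Left ventricles (LVs) of 12 C57BL/6J mice were hybridised to 1-color arrays, with 1 array per mouse. All mice carried a transgene that expresses, in cardiomyocytes, a mutant β1-adrenergic receptor without the sites that G protein-coupled receptor kinases phosphorylate (GRK−β1AR TG, here TG). Signaling of this receptor through β-arrestin is impaired. Double transgenic (DTG) mice also overexpressed miR-150 from a CAG promoter, which is active in most cell types and not in cardiomyocytes alone. Osmotic pumps delivered isoproterenol (ISO), an agonist of β-adrenergic receptors, or its vehicle of ascorbic acid in saline to mice of both genotypes over 1 week. This gave a vehicle and an ISO group of each genotype, with 3 mice per group. Ages on the labels were 9 to 12 weeks, and 1 mouse of each group was labelled female. There was no group without the mutant receptor, so every value below comes from hearts that carried it.

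The 75th percentile of the array signal was 244 to 540, and 53% to 79.4% of probes were well above background. Arrays were scanned in 3 runs. Scan 1 held TG vehicle 1 and 2, TG ISO 1 and 2, and DTG vehicle 1 and 2. Scan 2 held DTG vehicle 3 and all 3 DTG ISO arrays, and scan 3 held TG vehicle 3 and TG ISO 3. The arrays of scan 3 stood apart from their groups. Across probes, which are not independent replicates, TG ISO 3 correlated at 0.981 with both TG vehicle 1 and 2, against 0.94 and 0.957 with the other TG ISO arrays. TG vehicle 3 correlated at 0.982 and 0.985 with TG ISO 1 and 2, against 0.936 with both other TG vehicle arrays. Differences that involve a TG group are therefore given with and without these arrays.

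A level is the log2 signal minus the log2 of the 75th percentile of signals on that array. In TG vehicle hearts, Gusb was at 2.65 in replicate 1, 2.89 in replicate 2 and 4.19 in replicate 3. Replicate 3 thus stood far above the other TG vehicle arrays. In TG ISO hearts, the level was 4.02 in replicate 1, 4.57 in replicate 2 and 2.67 in replicate 3. Here replicate 3 was the low one, and it lay among the levels of TG vehicle 1 and 2. DTG vehicle hearts had 2.52, 2.78 and 2.60 in replicates 1 to 3. DTG ISO hearts had 2.56, 2.52 and 2.91. All 6 DTG arrays lay within 0.40 of each other, whereas both TG groups held arrays from each side of a wide gap.

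**Figure D1:**
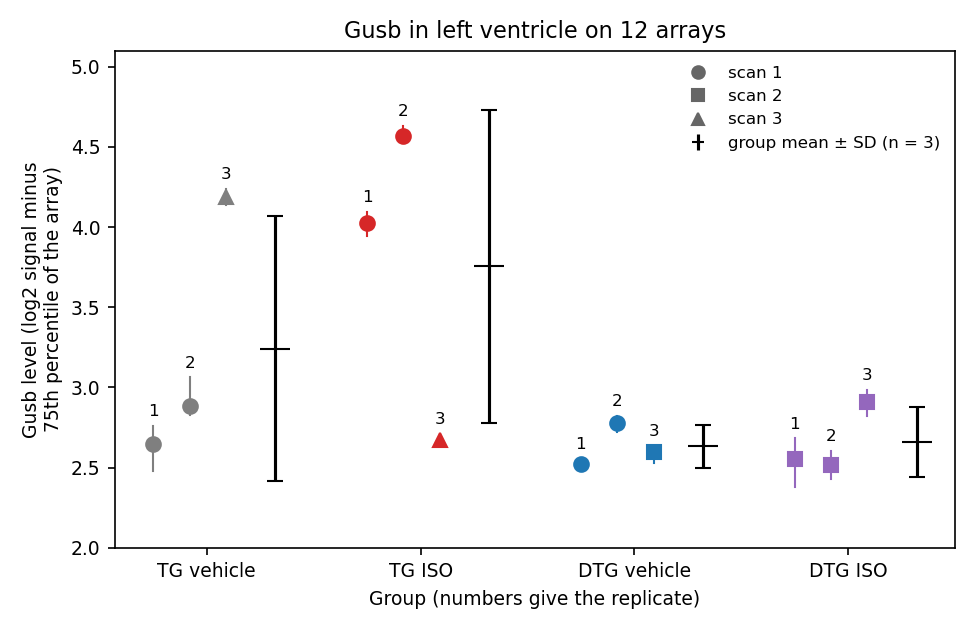
Level of Gusb (y axis, log2 signal minus the 75th percentile of the array) on each array by group (x axis), with the replicate number above each point, the scan as the symbol, and a vertical line from the lowest to the highest of the repeated spots that were used. Black bars give the group mean ± SD (n = 3). TG ISO 1 and 2 and TG vehicle 3 sit between 4.02 and 4.57, and the other 9 arrays between 2.52 and 2.91.

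Before scaling, the processed signal of Gusb was highest at 11485 on TG ISO 2. TG ISO 1 followed with 6529, and TG vehicle 3 with 5704. The other 9 arrays gave between 1558 on TG ISO 3 and 4060 on DTG ISO 3. The highest array was 4.15-fold above the lowest after scaling. In order of level, TG ISO 2 was followed by TG vehicle 3 and TG ISO 1, with a gap of 1.11 on the log2 scale before the next array, DTG ISO 3 at 2.91. Those 9 arrays covered a range of only 0.40, and arrays of all 4 groups were mixed within it.

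Group means were 3.76 ± 0.98 (SD, n = 3) in TG ISO, 3.24 ± 0.83 (SD, n = 3) in TG vehicle, 2.66 ± 0.22 (SD, n = 3) in DTG ISO and 2.63 ± 0.13 (SD, n = 3) in DTG vehicle. Each pair of neighbours in this order overlapped in its arrays. The SDs of both TG groups were far above those of the DTG groups.

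Gusb was measured by 20 spots on each array, which gives the technical error of a level. The SD over these spots was 0.019 to 0.076 on the log2 scale, which covers the measurement within 1 array and not the spread between mice. The lowest single spot on the 3 high arrays was at 3.95, and the highest single spot on the other 9 was at 3.06. The spots of the arrays named in the choice of the gene thus did not overlap with those of the others. All 240 spots were well above background, none was saturated, and 228 remained after spots marked as outliers were left out. The median local background around the spots was 23 to 26.5, against median spot signals of 1612 to 11772. Gusb was 8.12 to 11.5 log2 units above the median of the 15 negative probes on the same array, so its level was not limited by background.

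The first comparison of the study asked what 1 week of ISO did in hearts with the mutant receptor alone. Gusb was 0.51 higher on the log2 scale in TG ISO than in TG vehicle (1.43-fold), less than the spread between replicates (pooled SD 0.90), and the groups overlapped. Within scan 1, TG ISO 1 and 2 were both above TG vehicle 1 and 2, and the means differed by 1.53. In scan 3, which held 1 array of each group, the difference was -1.51. The sign of the ISO difference in TG hearts was thus opposite in the scans, and the value without the scan 3 arrays is the one of scan 1. Leaving out TG ISO 3 alone gave 1.05, and leaving out TG vehicle 3 alone gave 0.99. Leaving out TG ISO 2 gave 0.11. Whether the labels of the scan 3 arrays match their mice was not tested.

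In DTG hearts, the same comparison gave a difference of 0.03 on the log2 scale, with Gusb higher in DTG ISO than in DTG vehicle (1.02-fold, pooled SD 0.18, n = 3 arrays per group). All 6 arrays were among the 9 whose narrow range entered the choice of the gene, so this value too is given without a test. The groups overlapped, with DTG ISO 3 above and DTG ISO 2 below every DTG vehicle array. Over all probes, limma called 0 of 45152 (0%) in this comparison after Benjamini-Hochberg adjustment, while 3419 had an unadjusted p below 0.05, and the methods' t-test also called 0. A count of 0 with 3 arrays per group does not show that no probe changed. DTG vehicle 3 alone of its group shared a scan with DTG ISO, so a fit with scan as a block compares the DTG ISO arrays with this 1 array. That fit called 22 probes, whereas the same contrast on the arrays of scan 2 by themselves called 0, with 1654 at an unadjusted p below 0.05. Without DTG vehicle 3 the count was 2566 of 45147. The vehicle arrays left were then all of scan 1 and the DTG ISO arrays all of scan 2. Scan and treatment cannot be told apart in that fit. The difference of Gusb was 0.06 with the block and 0.01 without DTG vehicle 3. Within scan 2, the mean of the DTG ISO arrays was 0.06 above DTG vehicle 3, with DTG ISO 3 above that array and DTG ISO 1 and 2 below it.

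The comparison of genotypes under vehicle bears on the effect of added miR-150 in unstimulated hearts. Gusb was -0.61 in DTG vehicle relative to TG vehicle on the log2 scale (0.656-fold, pooled SD 0.59). This value rested on TG vehicle 3. Without that array, the difference was -0.13, and within scan 1, where TG vehicle 1 and 2 and DTG vehicle 1 and 2 were scanned together, it was -0.12. TG vehicle 1 lay between the DTG vehicle arrays in level, and TG vehicle 2 lay above all of them.

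Under ISO, the difference between DTG and TG hearts was -1.09 on the log2 scale (0.468-fold, pooled SD 0.71). All DTG ISO arrays lay below TG ISO 1 and 2, but TG ISO 3 lay below DTG ISO 3, so the groups overlapped. The difference was -1.64 without TG ISO 3 and -0.69 without TG ISO 2. No scan held arrays of both groups, so scan and genotype cannot be told apart here. In these bulk samples, fewer cells of a type and less Gusb mRNA per cell cannot be told apart either.

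Labelled sex did not follow the levels. The female mice were TG vehicle 1 at 2.65, TG ISO 1 at 4.02, DTG vehicle 1 at 2.52 and DTG ISO 3 at 2.91. Only TG ISO 1 among them was high, and the other high arrays came from males. The mice behind the high arrays were labelled 9, 10 and 12 weeks old, which spans the ages of all 12.

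The order of arrays seen for Gusb was common on the array. Among probes well above background on at least 3 arrays, 44739 had a value on every array. The 3 high arrays can meet this filter by themselves. Of the 44739, 7105 (15.9%) were higher on each of TG ISO 1, TG ISO 2 and TG vehicle 3 than on all other arrays. Another 7269 (16.2%) were lower on each of them. Gusb was thus 1 of many probes with this order, and 1378 of those above showed a larger gap than its 1.11, while their median gap was 0.41. The shares were 12.9% to 17% above and 15.6% to 19.9% below under the other scalings and a filter on all 12 arrays. Its range across arrays, 2.05, was also not extreme. Among 30673 probes well above background on every array, 4822 (15.7%) had a larger range, and the median range was 1.21.

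**Figure D2:**
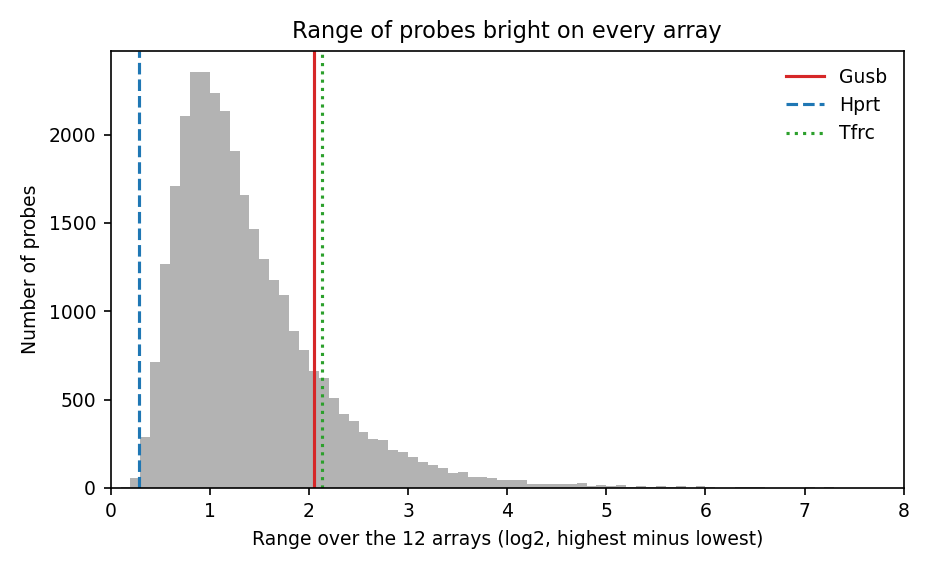
Number of probes (y axis) by the range of their level over the 12 arrays (x axis, log2, highest minus lowest array), for 30673 probes well above background and unsaturated on every array; 8 probes with a range over 8 are not drawn. Vertical lines mark Gusb at 2.05, Hprt at 0.29 and Tfrc at 2.13, and 15.7% of probes lie beyond Gusb.

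Likeness to Gusb was measured as the root mean square distance between profiles over the 12 arrays, each centred on its own mean. The nearest probe, ASMM10P039322, was at 0.068 log2 units, and the next, ASMM10P000769, at 0.083. The median probe was at 0.816, and a probe with no variation at all would be at 0.706. After centring, ASMM10P039322 was at 0.86 or above on the 3 high arrays and at -0.12 or below on the others. Gusb itself, on the same centred scale, was at 0.95 or above and at -0.16 or below. The files do not pair these probes with gene names, and all profiles share arrays, labelling and scaling, so the likeness is a description of the arrays.

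The other 14 housekeeping genes are the named company in which Gusb can be read. Of these, 5 had the same order of arrays, with TG ISO 1, TG ISO 2 and TG vehicle 3 above the rest, against 15.9% of 44739 probes. B2m is 1 of the 5, and its levels on these arrays had entered the choice of Gusb, so nothing is read from this count. Nearest to Gusb was Rpl13a, a protein of the large ribosomal subunit, at a distance of 0.32. Its level was 4.47, 4.51 and 4.41 on the TG ISO 1, TG ISO 2 and TG vehicle 3 arrays, and 3.28 to 3.68 on the other 9. It thus repeated the separation of Gusb with a smaller gap of 0.73. Ppia, the prolyl isomerase cyclophilin A, had a gap of 0.43, and B2m one of 0.22. Tuba1b, an α-tubulin, had a gap of 0.20, and G6pd2, a retrogene of the first enzyme of the pentose phosphate pathway, one of 0.10. The direction was the same for these 5 under quantile normalization, median scaling, normexp background correction, the authors' values and scaling to housekeeping probes.

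The opposite order was held by 2 housekeeping genes, against 16.2% of 44739 probes. Tfrc, the transferrin receptor for iron uptake, was farthest from Gusb, at a distance of 1.28. Its level was 4.43 on TG vehicle 3, 4.82 on TG ISO 1 and 5.28 on TG ISO 2, and 5.59 to 6.56 on the others. Gk, glycerol kinase, was lower on the same arrays with a gap of 0.38. The remaining 7 genes, Actb, Gapdh, Hprt, Hsp90ab1, Ldhal6b, Nono and Tbp, had neither order. Hprt, the purine salvage enzyme, varied over 0.29 and Tbp, the TATA-binding protein, over 0.53. The log2 ratio of the Gusb signal to the Hprt signal on the same array was -1.77 to -1.16 on the 3 high arrays and -3.42 to -2.76 on the others. Against Tbp it was 3.40 to 3.96 and 1.77 to 2.14. With a gap of 1.11 in Gusb against these smaller ranges, the separation in both ratios was fixed in advance. Nothing is read from it.

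**Figure D3:**
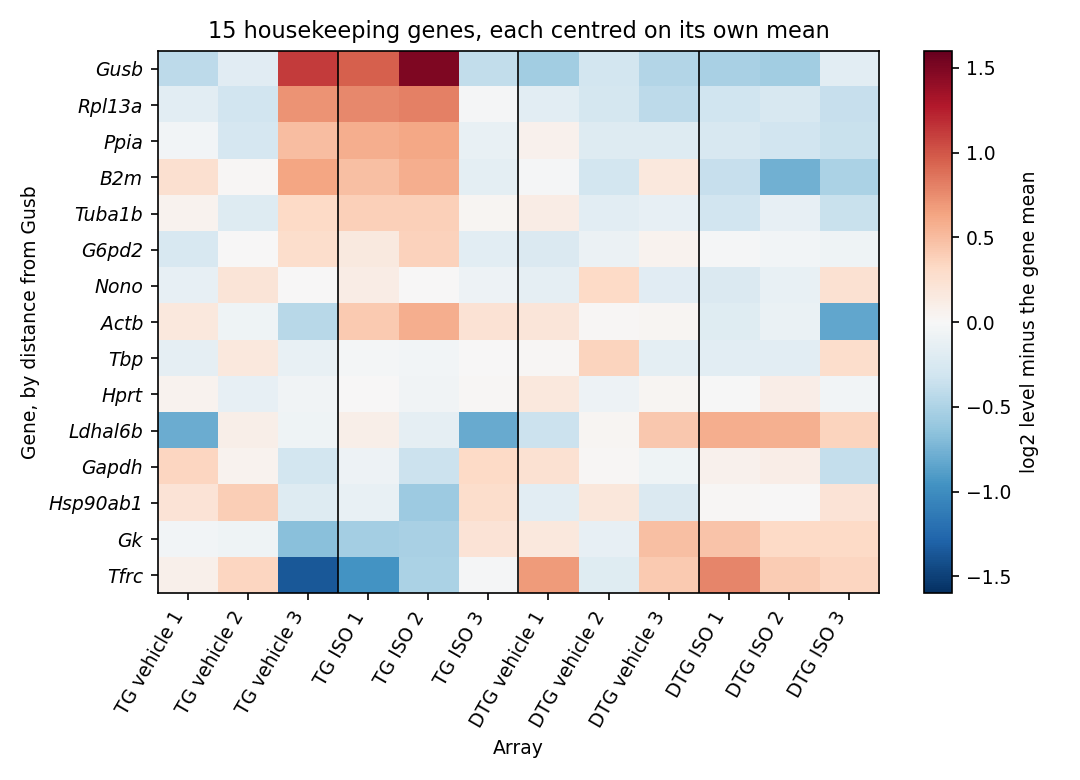
Level of 15 housekeeping genes (rows, ordered by distance from Gusb) on the 12 arrays (columns, by group), as log2 level minus the mean of the gene (color scale, red above and blue below the mean). Gusb, Rpl13a, Ppia, B2m, Tuba1b and G6pd2 are higher on TG vehicle 3, TG ISO 1 and TG ISO 2 than on the other 9 arrays, and Gk and Tfrc are lower.

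Of a pair of Gapdh control probes, 1 separated the same arrays as Gusb, in the opposite direction. That order was held by 16.2% of 44739 probes. Mouse-GAPDH_5, a probe for the glycolytic enzyme Gapdh printed as 10 spots, was lower, at 7.05 to 7.54, on the 3 arrays with high Gusb and at 7.86 to 8.17 on the other 9, scaled as for Gusb. The 3 arrays and the other 9 did not overlap. The companion probe Mouse-GAPDH_3 was at 8.35 to 8.72 on the 3 arrays, within its range of 8.19 to 9.12 on the others. The housekeeping probe for Gapdh did not separate the arrays either, at 8.72 to 8.99 on the 3 and 8.69 to 9.42 on the others. The difference between the companion probes, on the log2 scale, was 1.18 to 1.33 on the 3 arrays and 0.334 to 1.12 on the others. Within the others it was 0.334 to 0.568 on the 4 arrays of scan 2, so it also varied with the scan. The sources used here do not say which part of the transcript each probe covers, and the part of RNA quality or labelling in the level of Gusb was not tested. The 75th percentile itself did not separate the arrays, at 313 to 484 on the 3 and 244 to 540 on the others.

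**Figure D4:**
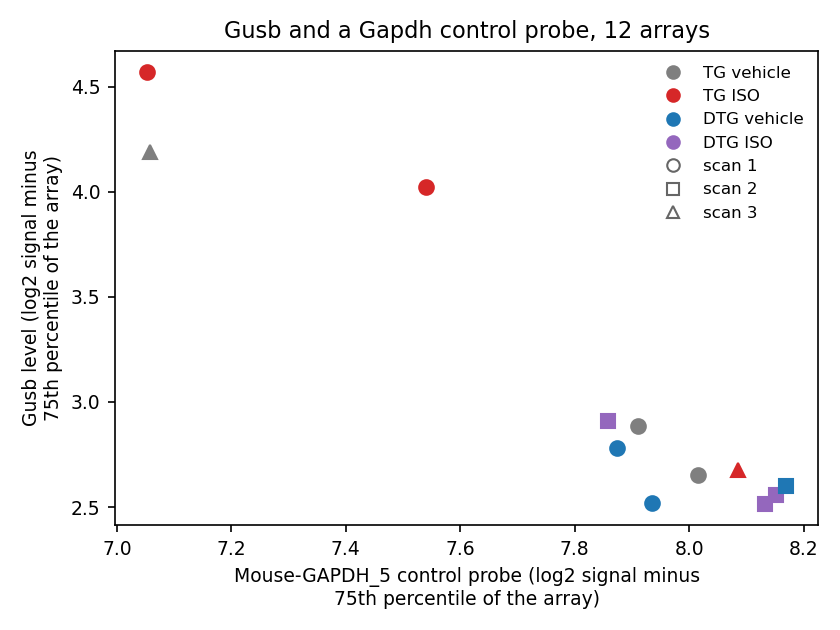
Level of Gusb (y axis) against the control probe Mouse-GAPDH_5 (x axis), both as log2 signal minus the 75th percentile of the array, for the 12 arrays, with groups as colors and scans as symbols. The 3 arrays with Gusb above 4 lie at 7.05 to 7.54 on the x axis, and the other 9 lie at 7.86 to 8.17. An order with these 3 arrays lowest was held by 16.2% of 44739 probes.

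The choice of scaling had little effect on Gusb. Under 8 ways of processing, the gap between the 3 high arrays and the rest was 0.93 to 1.13 on the log2 scale, and the range over all arrays was 2.01 to 2.10. The smallest gap came with quantile normalization and the largest with median scaling. The difference between TG ISO and TG vehicle was 0.44 to 0.52 and that between DTG ISO and TG ISO was -1.12 to -0.99 under these settings.

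**Figure D5:**
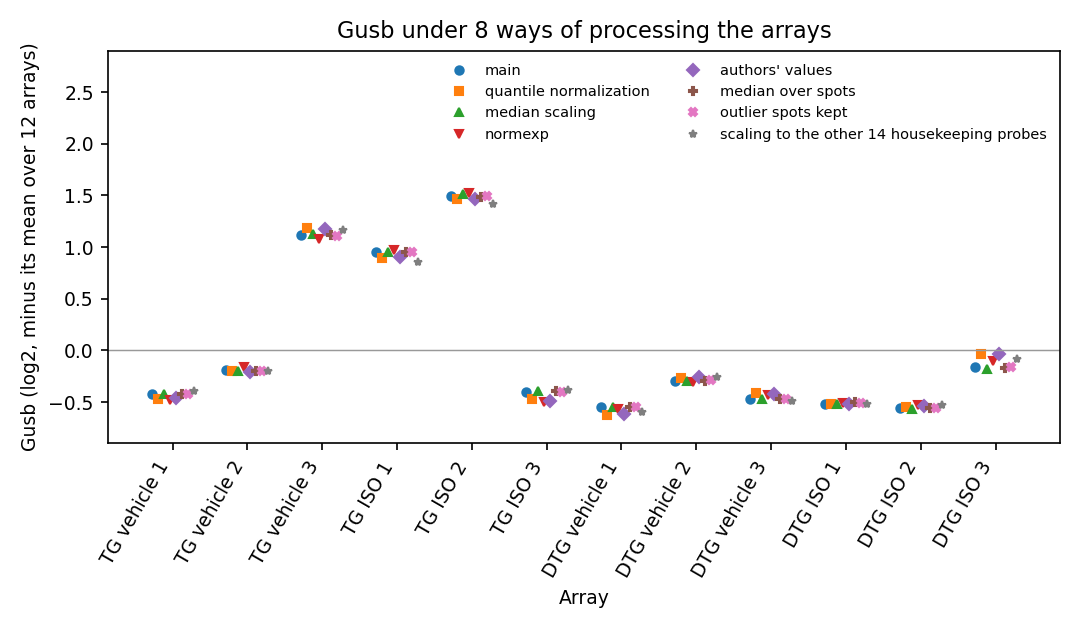
Level of Gusb on each array (x axis) minus its mean over the 12 arrays (y axis, log2) under 8 ways of processing, one symbol each. TG vehicle 3, TG ISO 1 and TG ISO 2 are above all other arrays in each of them, by 0.93 to 1.13.

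The start of the Gusb gene was read for regulatory letters because β-adrenergic receptors raise cAMP, whose response element (CRE) is the palindrome TGACGTCA, and because the factor TFEB, a regulator of many lysosomal genes, binds elements with the E-box core CACGTG. Both are palindromes and read alike on either strand, and the motifs were chosen after the sequence had been seen. The RefSeq window of 300 bases around the Gusb start (GRCm38.p6) held 1 CRE, from position -4 to 4 counted from the first transcribed base, and no E-box core. The stretch with the CRE in capitals, at chr5:130003046-130003075 on the minus strand, reads 5′ to 3′ as follows.
Gusb start: tagatgtgaggcaggcagcggcTGACGTCA
Of 32851 such windows, 588 (1.79%) held the CRE letters and 2349 (7.15%) the E-box letters. RefSeq windows were listed for 13 of the 15 housekeeping genes. Of these 14 windows, 1 held the CRE, that of Gusb, and 2 held the E-box letters. Since the motifs were chosen with the Gusb window known, nothing is read from these counts. The match is a description of letters, and no binding was measured in these hearts.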

How the data were processed

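RNA from which ribosomal RNA had been removed was labelled with Cy3 by random priming, per the labels. The authors deposited the output of Agilent Feature Extraction 11.0.1.1 for each array, in which a spot's processed signal is an intensity that the scanner software had corrected for background. The authors also deposited log2 values for 60819 of the probes, normalized between arrays by a method not given in the sources used here. The header names build mm9 for the array grid. No sample columns were left unused.

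Control spots, negative probes and 908 outlier spots were left out. Signals were logged to base 2, scaled by subtracting each array's own 75th percentile, and averaged over a probe's spots. The test covered 45152 probes, those that at least 3 of 12 arrays measured well above background. DTG ISO was compared with DTG vehicle by limma 3.58.1 in R 4.3.3 on the 6 DTG arrays (4 residual degrees of freedom, two-sided, Benjamini-Hochberg, threshold 0.05). This fit served the count over all probes. It and an exact permutation test had also been planned for Gusb, but their p-values are not given, since the levels on all 12 arrays had entered the choice of the gene. The fit was tested on simulated data. Normexp used an offset of 50 on median spot signals.

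Gusb, the housekeeping set and the comparisons were chosen with earlier results of these data known. Named beside Gusb were the 2 nearest probes and the nearest and farthest housekeeping genes; the other housekeeping genes are named to account for the set. Lists of lysosomal genes and of cell type markers were drawn up, but apart from the 15 housekeeping probes the files do not pair probes with genes, so these lists and the check of the labelled tissue were not analysed here. All 15 accessions matched RefSeq. The LVs came from separate mice, per the labels. The number of arrays limits the precision. Of 66 pairs of arrays, 0 held identical values.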

Additional observations from a re-analysis of the deposited data

How the results depend on the processing

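The differences of Gusb kept their direction under every other scaling, background correction and treatment of spots. The exception by subset was TG ISO minus TG vehicle, 0.51 in all arrays, 1.53 within scan 1 and -1.51 within scan 3. With 1 array left out it was 0.11 to 1.05, DTG vehicle minus TG vehicle was -0.90 to -0.13, and DTG ISO minus TG ISO was -1.64 to -0.69. DTG ISO minus DTG vehicle was 0.02 to 0.07 in 16 alternatives, and -0.10 to 0.10 with 1 array left out. It was -0.10 without DTG ISO 3 and -0.03 without DTG vehicle 1. The count of probes called in that comparison was 0 in 15 of 16 alternatives (the methods' t-test had 2415 of 44913 at an unadjusted p under 0.05), 22 with scan as a block, which rests on DTG vehicle 3 as the 1 vehicle array in the scan of DTG ISO, and 0 to 2566 with 1 array left out, the highest without DTG vehicle 3. Without DTG vehicle 3, scan and treatment coincided, and the cause of the higher count was not tested. With replicate number as a block, Gusb differed by 0.03 and 0 probes were called. The labels do not say that a number marks a shared litter or day, same-numbered DTG arrays correlated in their deviations at 0.08, -0.23 and -0.11, and 0 of 3 DTG ISO arrays correlated best with its own number. Scaling to the other housekeeping probes and, for the count of probes called, the fit within scan 2 were chosen after seeing the data. Signal over background did not limit the values of Gusb.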
